A study of Mus musculus with 10 samples.

Results

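A group of 10 genes that cells switch on within minutes of a stimulus or through cyclic AMP, other than those of the AP-1 family, were followed in RNA sequencing libraries of the mouse trigeminal ganglion. They were chosen by name, with earlier results of these data known: the transcription factors Egr1, Nr4a1, Nr4a2, Nr4a3, Npas4 and Crem, and the genes Arc, Dusp1, Btg2 and Ier2. All 10 were found by Ensembl identifier in both deposited tables, which hold 26411 and 55886 genes. The surgery experiment had 3 libraries of ganglia taken 10 days after the surgery labelled pIONT and 3 taken 10 days after sham surgery. The injection experiment had 2 libraries of ganglia taken 6 hours after urocortin 1 (UCN1), a peptide of the corticotropin-releasing factor family, was injected into the ganglion, and 2 taken 6 hours after phosphate-buffered saline (PBS). The sources used here give neither strain, sex and age of the mice nor whether a library held 1 animal or a pool. The p-values therefore speak only for the spread among these libraries, which may be technical.

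Immediate early genes are transcribed from factors that are already in the cell, without new protein. Calcium and cyclic AMP act on them through protein kinase A and CREB, which binds the cyclic AMP response element (CRE), and growth factors act through the ERK kinases and the serum response factor. In sensory neurons they are known as readouts of electrical activity and of signals from injured axons, and most of their transcripts are short-lived. Several of their products end the response that made them: the CREM gene also encodes the repressor ICER, and Dusp1 removes phosphate from the MAP kinases.

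Promoter sequences of 6 of the 10 genes were found in RefSeq's table (GRCm38.p6), and those of Arc, Egr1, Crem and Ier2 were not used here, so the called genes Crem and Arc are not among them. The 250 bases before the transcript start are shown for Dusp1 and Btg2, which rose together after pIONT, and for Nr4a1 and Nr4a2, which were not called. The 47 bases of Dusp1 nearest the start lie in an annotated exon and are left out. Capitals mark the CRE core TGACG on either strand, and the full CRE TGACGTCA where the core lies within it.
Dusp1, chr17:26508520-26508722, minus strand: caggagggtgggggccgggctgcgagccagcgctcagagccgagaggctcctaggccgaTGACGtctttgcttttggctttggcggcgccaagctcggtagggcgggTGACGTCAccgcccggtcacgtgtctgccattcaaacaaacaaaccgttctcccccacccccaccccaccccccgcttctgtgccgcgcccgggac
Btg2, chr1:134079156-134079405, minus strand: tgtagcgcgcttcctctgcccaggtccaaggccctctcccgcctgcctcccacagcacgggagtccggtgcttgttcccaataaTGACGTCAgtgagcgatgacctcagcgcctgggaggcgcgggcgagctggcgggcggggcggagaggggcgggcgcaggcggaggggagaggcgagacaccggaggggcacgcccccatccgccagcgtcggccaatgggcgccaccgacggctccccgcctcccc
Nr4a1, chr15:101266596-101266845, plus strand: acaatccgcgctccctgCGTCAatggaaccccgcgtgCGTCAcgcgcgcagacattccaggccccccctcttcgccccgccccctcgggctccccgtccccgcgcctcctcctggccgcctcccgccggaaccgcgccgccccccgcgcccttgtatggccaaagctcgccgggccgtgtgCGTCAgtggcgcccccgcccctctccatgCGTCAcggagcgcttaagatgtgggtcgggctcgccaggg
Nr4a2, chr2:57124004-57124253, minus strand: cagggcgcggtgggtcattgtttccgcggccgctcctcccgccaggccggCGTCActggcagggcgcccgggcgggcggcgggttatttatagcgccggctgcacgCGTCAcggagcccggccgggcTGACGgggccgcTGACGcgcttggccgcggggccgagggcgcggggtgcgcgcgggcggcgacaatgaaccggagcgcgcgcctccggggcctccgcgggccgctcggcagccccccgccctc
The full CRE lay in the 250 bases of Dusp1, 143 bases before the start, and of Btg2, 166 bases before it. It was in 2 of the 6 promoters, against 1.55% of 32817 mouse promoters of the same length. The core was in all 6, Nr4a3 and Npas4 included, against 17.7% of all promoters. The genes were listed as immediate early or responsive to cyclic AMP, so these shares describe the list and do not test it. The 6 promoters held 63.6% to 80.0% G and C, and the promoters they were compared with were not matched for this. Annotated exons cover 152 of the 250 bases of Nr4a3 and all 250 of Npas4, so matches there can lie in exons. Nr4a1 and Nr4a2 each held 4 copies of the core and no full CRE. The CArG box of the serum response factor, searched only as CC, then 6 bases of A or T, then GG, was in none of the 6. It was in 1.47% of all promoters, so its absence from so few promoters says little, and Egr1 and Ier2 were not searched. The EGR site GCGGGGGCG was in Nr4a1 only, 60 bases before the start (2.57% of all promoters), and TATAAA in Nr4a2 only (12.4%). All motifs were searched on both strands, and a match is a description of the letters, not evidence of binding.

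Read depth in genes, in mega-reads (M), was 24.1 to 29.6 M in the surgery experiment and 15.7 to 17.1 M in the injection experiment. All 8 sensory neuron markers were present in every library, with a summed level of 3906 to 4063 FPKM (read counts scaled to gene length and library size) in pIONT and 3007 to 3265 FPKM in sham. Of these, 2 were called higher, among them Tubb3 at a mean of 2150 FPKM in pIONT and 1162 FPKM in sham, and 3 lower (Nefh, Scn10a and Isl1), with a median log2 fold change of -0.13. The 5 Schwann cell markers summed to 3657 to 3937 FPKM in pIONT and 4411 to 4907 FPKM in sham, with 4 called lower and a median of -0.32. Some libraries carried RNA of neighbouring tissue or of blood. In the surgery experiment 5 pituitary markers summed to 117 to 132 FPKM in pIONT and to 765, 80.7 and 255 FPKM in sham 1 to 3. The 8 macrophage markers, of which 5 were called higher, summed to 340, 725 and 300 FPKM in pIONT 1 to 3 and to 150 to 270 FPKM in sham. In the injection experiment 6 pituitary markers summed to 9.14 and 9.61 FPKM in UCN1 libraries and to 122 and 124 FPKM in PBS libraries, with 3 of 5 tested called lower and Lhb at 0 in all 4 libraries.

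Crem, Arc, Btg2 and Dusp1 rose in the ganglion 10 days after pIONT, and none of the 8 genes tested was called lower. The rise was 1.34- to 1.76-fold with 0.5 FPKM added to each value, and 1.36- to 1.99-fold as a ratio of mean FPKM. The nuclear receptors, Egr1 and Ier2 did not pass the test, and Nr4a3 and Npas4 were below the level needed for it. Genes with a mean of at least 0.5 FPKM were tested with limma on log2(FPKM + 0.5) and called at an adjusted p of 0.05 or less, with Benjamini-Hochberg adjustment over all 14672 genes. Of the 8 genes tested, 4 (Crem, Arc, Btg2 and Dusp1) were called higher, against a background of 10.5% of all genes called higher, and 0 were called lower, against 12.3%. Because the genes were chosen with earlier results of these data known, these shares describe the list and do not test it. By unadjusted p of 0.05 the counts of the 8 genes were also 4 higher and 0 lower, against 5434 of all 14672 genes in either direction. That background was not split by direction. By voom, limma's method for read counts, the counts of the 8 genes were again 4 higher and 0 lower. Over all genes, voom called more genes in each direction than the main fit did. The 17 alternatives, voom among them, called 898 to 1744 of all genes higher and 758 to 2110 lower. The 10.5% and 12.3% belong to the main fit at its adjusted p. They are not the background of the unadjusted or the voom count. Every pIONT library lay above every sham library in 4 of the 8 genes, the same 4, against 18.7% of all genes, and below it in 0, against 24.7%. The median log2 fold change of the 8 genes was 0.27, and that of all tested genes was -0.02.

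**Figure D1:**
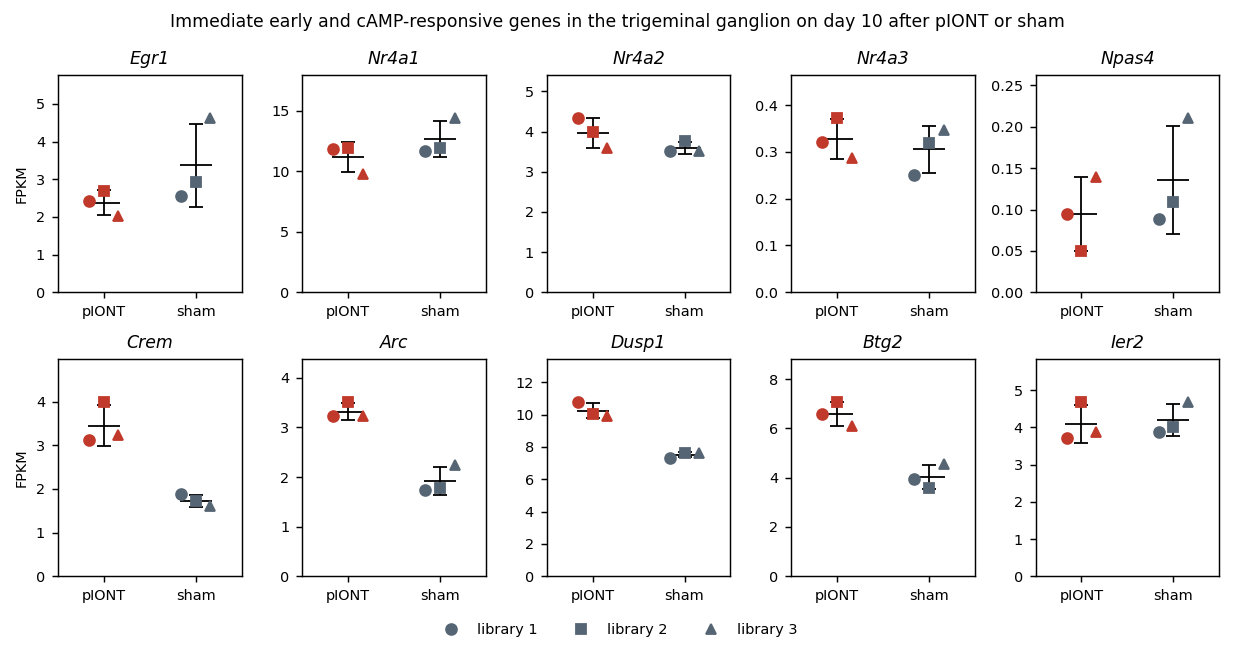
FPKM (y axis, from 0) of the 10 genes in the 3 pIONT libraries (red) and the 3 sham libraries (grey), with symbols for the library number, a horizontal bar for the mean and whiskers for the SD. In Crem, Arc, Dusp1 and Btg2 every pIONT library lies above every sham library, while sham 3 (triangle) is the highest library of Egr1, Nr4a1 and Npas4.

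Crem, which encodes activators and repressors that bind the CRE, was at 3.13, 3.99 and 3.24 FPKM in pIONT 1 to 3, against 1.88, 1.72 and 1.60 FPKM in sham 1 to 3. The pIONT libraries were all high and lay well clear of the sham libraries. The log2 fold change was 0.82 (SE 0.10, limma adjusted p = 0.00262), with 1723 reads in pIONT and 823 reads in sham over 3 libraries each. GENCODE vM21 lists 39 transcripts of Crem, and the tables give 1 value per gene, so activator forms and ICER cannot be told apart. Exons of the gene Gm6225 on the other strand cover 8.01% of the exon bases of Crem, and the sources do not say whether strand was counted. The surgery table places Crem on chromosome 18 from 3266048 to 3337748, Arc on chromosome 15 from 74540932 to 74544419, Btg2 on chromosome 1 from 134002908 to 134006858 and Dusp1 on chromosome 17 from 26724564 to 26781102, in the build the submitters' processing notes call GRCm39.

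Arc, a cytoskeleton-associated protein of synapses that takes part in the removal of glutamate receptors, was at 3.22, 3.51 and 3.23 FPKM in pIONT, against 1.74, 1.79 and 2.24 FPKM in sham. The 3 pIONT values were close to one another, and sham 3 was the highest of the sham libraries without reaching them. The log2 fold change was 0.66 (SE 0.09, limma adjusted p = 0.00434), on 857 reads in pIONT and 468 reads in sham. Btg2, an antiproliferative protein that recruits the deadenylase complex CCR4-NOT to messenger RNA, was at 6.59, 7.06 and 6.08 FPKM in pIONT, against 3.95, 3.56 and 4.57 FPKM in sham. Again the groups did not overlap and sham 3 was the highest sham library. Its log2 fold change was 0.65 (SE 0.09, limma adjusted p = 0.00486).

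Dusp1, the nuclear phosphatase of the MAP kinases, was at 10.8, 10.0 and 9.90 FPKM in pIONT, against 7.33, 7.63 and 7.64 FPKM in sham. It had the smallest fold of the 4 called genes, with SDs of 0.469 FPKM in pIONT and 0.177 FPKM in sham and no overlap between the groups. The log2 fold change was 0.42 (SE 0.05, limma adjusted p = 0.00246). Ranked by log2 fold change among the 1537 genes called higher, Crem was at place 310, Arc at 443, Btg2 at 455 and Dusp1 at 777. All 4 were called under each of the 17 alternatives, with log2 fold changes of 0.70 to 0.99 for Crem, 0.57 to 0.81 for Arc, 0.57 to 0.73 for Btg2 and 0.38 to 0.44 for Dusp1. They include fits without sham 1, the sham library with the most pituitary RNA, without pIONT 2, the pIONT library with the most macrophage RNA, and without both. In bulk tissue, more cells of a type and more RNA per cell cannot be told apart, and the part of the macrophage, Schwann cell and neuronal marker RNA in these values was not tested.

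Egr1, a zinc-finger factor that is often used as a marker of neuronal activity, was at 2.43, 2.68 and 2.03 FPKM in pIONT, against 2.56, 2.93 and 4.62 FPKM in sham. The groups overlapped, and sham 3 stood far above the other sham libraries. The log2 fold change was -0.40, with a 95% interval of -0.85 to 0.06 (limma adjusted p = 0.183), and -0.18 without sham 3 (limma adjusted p = 0.375). The highest sham value also came from sham 3 in Nr4a1, Nr4a3, Npas4, Ier2, Arc, Btg2 and Dusp1, that is in 8 of the 10 genes with Egr1. That library had the lowest depth, 24.1 M reads, and the highest sums of 5 neutrophil and 5 red blood cell markers, 229 and 402 FPKM, against 27.2 and 101 in sham 1 and 68.6 and 209 in sham 2. Their part in the high values of sham 3 was not tested.

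The NR4A receptors are orphan nuclear receptors that are induced by cyclic AMP and calcium in many cell types. Nr4a1 was at 11.8, 11.9 and 9.79 FPKM in pIONT, against 11.7, 12.0 and 14.4 FPKM in sham, with overlapping groups. Its log2 fold change was -0.17, with a 95% interval of -0.42 to 0.07 (limma adjusted p = 0.273), and it was -0.08 without sham 3 and -0.08 without pIONT 3. Nr4a2, which is required for dopamine neurons of the midbrain, was at 4.34, 4.00 and 3.59 FPKM in pIONT, against 3.51, 3.75 and 3.50 FPKM in sham. Its lowest pIONT library lay within the sham values, and the log2 fold change was 0.13, with a 95% interval of -0.05 to 0.30 (limma adjusted p = 0.264). These intervals leave out a change as large as that of Crem in either receptor.

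Ier2, a nuclear protein of the early growth factor response, was at 3.72, 4.68 and 3.88 FPKM in pIONT, against 3.88, 4.02 and 4.68 FPKM in sham. The groups covered the same range, with a log2 fold change of -0.03 and a 95% interval of -0.27 to 0.20 (limma adjusted p = 0.842). Nr4a3 was at 0.320, 0.372 and 0.288 FPKM in pIONT, against 0.250, 0.320 and 0.346 FPKM in sham, on 41 to 65 reads per library. Npas4, a factor that neurons induce through calcium entry, rested on 10, 6 and 17 reads in pIONT 1 to 3 and on 10, 13 and 21 reads in sham 1 to 3, or 0.0497 to 0.139 and 0.0882 to 0.211 FPKM. Both were below the filter and overlapped between the groups. Without the filter their log2 fold changes were 0.04 for Nr4a3 and -0.10 for Npas4 (limma adjusted p = 0.81 and 0.585).

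None of the 9 genes tested passed 6 hours after UCN1, and Npas4 was below the filter. Egr1, Arc, Ier2 and Crem were higher in both UCN1 libraries than in both PBS libraries, Crem only by 4.80 against 4.74 FPKM. Egr1 came nearest to the threshold, at 1.56-fold. Of the 9 genes tested among 16139, 0 were called higher, against 0.304% of all genes, and 0 lower, against 0.297%, or 0.601% in either direction. At an unadjusted p of 0.05, 1 gene was higher, Egr1, and 0 lower, against 2113 of all 16139 genes in either direction. With voom 1 was called higher, again Egr1, against 164 higher and 188 lower among all genes. Groups that did not overlap were seen in 4 of the 9 genes upward and 1 downward, against 21.8% and 23.7% of all genes. The median log2 fold change of the 9 genes was 0.08, and that of all tested genes was -0.01.

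**Figure D2:**
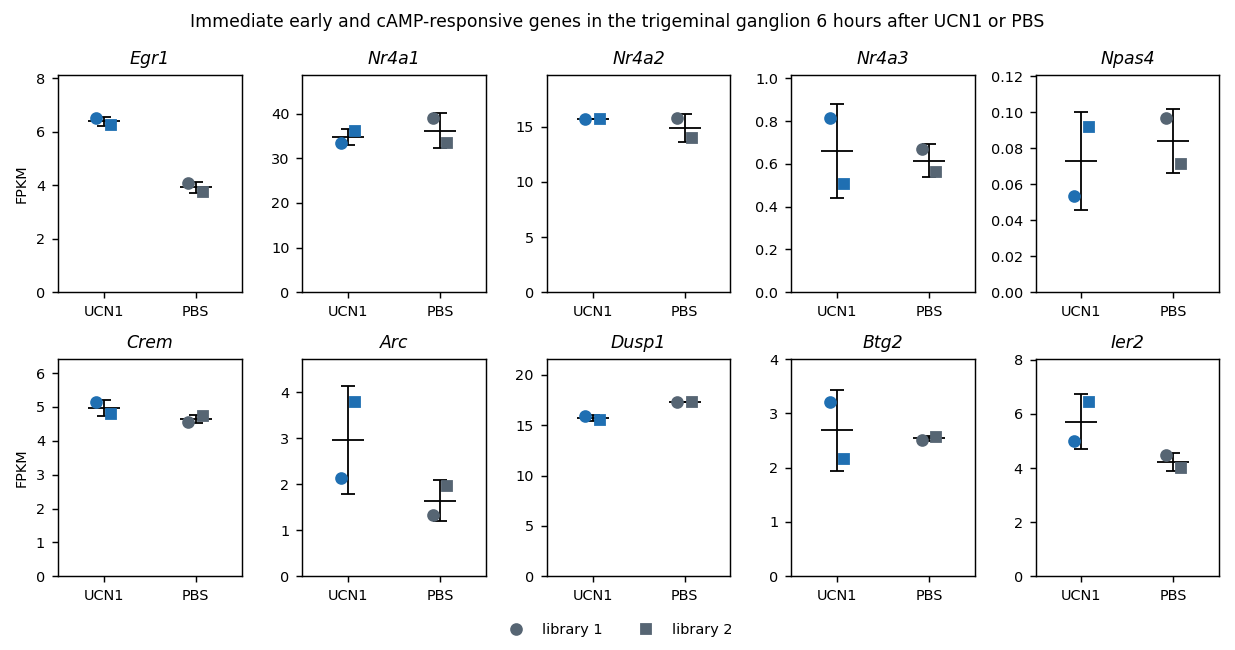
FPKM (y axis, from 0) of the 10 genes in the 2 UCN1 libraries (blue) and the 2 PBS libraries (grey), with symbols for the library number, a horizontal bar for the mean and whiskers for the SD. Egr1 is at 6.50 and 6.25 FPKM in UCN1 and at 4.07 and 3.76 FPKM in PBS, while the UCN1 libraries of Arc lie far apart.

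Egr1 was at 6.50 and 6.25 FPKM in UCN1 libraries, against 4.07 and 3.76 FPKM in PBS libraries, on 417 and 388 reads against 240 and 241. The libraries of a group were close and the groups well apart. The log2 fold change was 0.64 (SE 0.16), with a 95% interval of 0.27 to 1.01, and it did not pass over all genes (limma adjusted p = 0.169). With voom on the recovered reads it was 0.70 (SE 0.15) and passed (limma adjusted p = 0.0163). Over the 14 alternatives the value stayed between 0.59 and 0.70, with an adjusted p of 0.0163 to 0.657.

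Arc was at 2.13 and 3.79 FPKM in UCN1 libraries, against 1.33 and 1.96 FPKM in PBS libraries. The lower UCN1 library lay just above the higher PBS library, so that the log2 fold change of 0.66, with a 95% interval of -0.02 to 1.34 (limma adjusted p = 0.395), was 0.31 without UCN1 2 and 1.01 without UCN1 1. Ier2 was at 5.00 and 6.44 FPKM in UCN1 libraries, against 4.47 and 4.00 FPKM in PBS libraries. Its log2 fold change was 0.38, with a 95% interval of -0.04 to 0.81 (limma adjusted p = 0.422), and it was 0.22 without UCN1 2. In both genes 1 library thus set much of the difference.

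Crem, the most changed of the 10 genes after pIONT, was at 5.14 and 4.80 FPKM in UCN1 libraries, against 4.56 and 4.74 FPKM in PBS libraries. The log2 fold change was 0.09, with a 95% interval of -0.29 to 0.46 (limma adjusted p = 0.861). Dusp1 was at 15.9 and 15.5 FPKM in UCN1 libraries and 17.3 FPKM in each PBS library, the only one of the 9 tested genes with both UCN1 libraries below both PBS libraries. Its log2 fold change was -0.13, with a 95% interval of -0.39 to 0.12 (limma adjusted p = 0.641). Btg2 was at 3.21 and 2.16 FPKM in UCN1 libraries, against 2.51 and 2.57 FPKM in PBS libraries, which lay between them. Its log2 fold change was 0.05, with a 95% interval of -0.49 to 0.59 (limma adjusted p = 0.953).

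The NR4A receptors overlapped between the groups of the injection experiment. Nr4a1 was at 33.5 and 36.0 FPKM in UCN1 libraries, against 39.0 and 33.4 FPKM in PBS libraries, and its log2 fold change was -0.06 (95% interval -0.31 to 0.20, limma adjusted p = 0.871). Nr4a2 was at 15.7 FPKM in each UCN1 library, against 15.8 and 14.0 FPKM in PBS libraries, with a log2 fold change of 0.08 (95% interval -0.20 to 0.35, limma adjusted p = 0.832). Nr4a3, at 0.814 and 0.504 FPKM in UCN1 libraries and 0.668 and 0.561 FPKM in PBS libraries, had the widest interval, -0.73 to 0.82. Npas4 rested on 3 and 5 reads in UCN1 libraries and on 5 and 4 reads in PBS libraries and was below the filter. The lower pituitary RNA of the UCN1 libraries moved with this comparison. So did Fmod, a fibroblast and meningeal marker, at means of 0.878 FPKM in UCN1 and 23.2 FPKM in PBS (limma adjusted p = 0.00864). The sums of 6 such markers overlapped, at 686 to 707 and 697 to 913 FPKM. Of 6 satellite glia markers 0 were called, with sums of 1040 to 1048 FPKM in UCN1 and 964 to 1005 FPKM in PBS. The part of these differences in the values of the 10 genes was not tested.

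**Figure D3:**
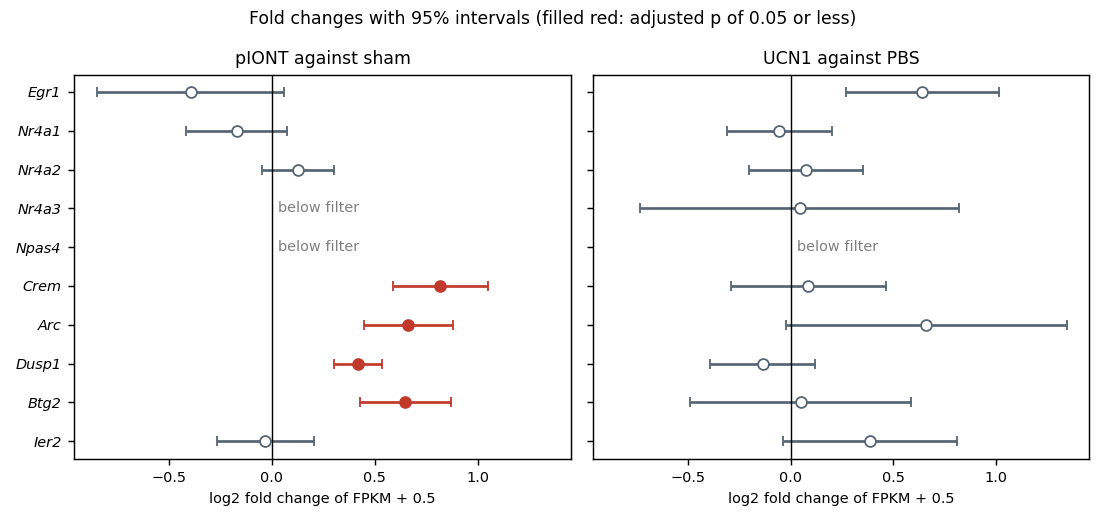
Log2 fold changes of FPKM + 0.5 (x axis) with 95% intervals for pIONT against sham (left) and UCN1 against PBS (right), with filled red points for genes called at an adjusted p of 0.05 or less and open grey points for the others. Crem, Arc, Dusp1 and Btg2 are called after pIONT and none after UCN1, where the interval of Egr1, 0.27 to 1.01, also lies above 0.

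Set side by side, the genes called after pIONT had log2 fold changes of 0.82 (Crem), 0.66 (Arc), 0.65 (Btg2) and 0.42 (Dusp1) after pIONT and of 0.09, 0.66, 0.05 and -0.13 in the same order after UCN1. Egr1 had -0.40 after pIONT and 0.64 after UCN1. The tables were made separately, with different annotations and gene lengths, so the difference between the experiments was not tested.

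The order of levels among the 10 genes depends on the length by which reads were divided. In the surgery table, whose values fit the union of exons, Nr4a1 was highest in both groups, at a mean of 11.2 FPKM in pIONT and 12.7 FPKM in sham. Dusp1 followed at 10.2 FPKM in pIONT, within the range of Nr4a1, and at 7.53 FPKM in sham, below it, and Nr4a3 and Npas4 were lowest. In sham the neighbours Ier2, Btg2, Nr4a2 and Egr1, at 4.19, 4.03, 3.59 and 3.37 FPKM, each overlapped with the next in its range over libraries, and so did Arc and Crem at 1.92 and 1.73 FPKM. Crem and Arc stood above Egr1 in every pIONT library, at means of 3.45 and 3.32 against 2.38 FPKM. The values of the injection table fit the mean length of a gene's transcripts, which is 1300 bases for Crem against a union of 5895 bases, and 1567 against 3509 bases for Nr4a1. Per union length, Nr4a1 in the injection experiment averaged 15.5 FPKM in UCN1 and 16.2 FPKM in PBS libraries, in place of 34.7 and 36.2 FPKM. Crem averaged 1.10 and 1.03 FPKM, in place of 4.97 and 4.65 FPKM, and moved to place 8 of the 10 genes in both groups.

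By the distance between centred log2 profiles over the 6 surgery libraries, the tested genes most like Crem were Pmaip1, a BH3-only protein of the BCL-2 family, and Rnf122, at distances of 0.06 each. Those most like Dusp1 were Reep1, a shaping protein of the endoplasmic reticulum, and Atp6v0a2, a subunit of the proton pump, at 0.06 and 0.07. Those most like Btg2 were C1ql3 and Gas2l2, at 0.08 and 0.09, and those most like Arc were Prr15 at 0.09 and Btg2 itself at 0.14. Exons of C1ql3 overlap other-strand genes over 64.2% of their bases. These distances describe 6 libraries in which many genes differ between 2 groups.

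Among 20 paralogs and partners of the 10 genes, 17 were tested after pIONT, of which 3 were called higher and 2 lower, against 10.5% and 12.3% of all genes, with a median log2 fold change of -0.04. The related Ier5 rose by 0.68 and Btg1 by 0.56 in log2 fold change (limma adjusted p = 0.0153 and 0.0181), each lost in 2 of 17 alternatives, Ier5 without pIONT 1 or sham 3 and Btg1 without sham 2 or sham 3. Arnt2, a partner with which Npas4 binds DNA, had a log2 fold change of 0.21 (limma adjusted p = 0.0411), lost in 10 of 17 alternatives. Dusp5, a nuclear phosphatase of ERK, fell by 0.44 (limma adjusted p = 0.00783) while its relative Dusp1 rose, and exons of a gene on the other strand cover 22.1% of its bases. After UCN1, 0 of 18 tested were called. At an unadjusted p of 0.05, 2 were higher and 1 lower, against 2113 of all 16139 genes in either direction. With voom 1 was lower, Egr3, a relative of Egr1. Egr3 was at 7.26 and 5.80 FPKM in UCN1 libraries, against 9.69 and 9.99 FPKM in PBS libraries, with a log2 fold change of -0.56 (limma adjusted p = 0.2). Arnt2 and the EGR corepressor Nab1, the members of the list with the highest levels, had log2 fold changes of -0.09 and 0.06 (limma adjusted p = 0.703 and 0.856).

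Of 32 other activity-induced genes, 31 were tested after pIONT, with 8 called higher and 1 lower, against 10.5% and 12.3% of all genes, and a median of 0.05. Nfil3, a leucine zipper repressor, rose by 1.72, the stress gene Gadd45g by 1.56, the secreted peptide precursor Vgf by 1.52 and the zinc-finger factor Klf6 by 1.00 as log2 fold changes (adjusted p from limma of 0.000347, 0.000373, 0.00055 and 0.00079). Each of these log2 fold changes was larger than that of Crem, and Vgf averaged 128 ± 22.6 FPKM in pIONT and 44.0 ± 3.72 FPKM in sham (SD, n = 3 each). After UCN1, 0 of 31 were called. At an unadjusted p of 0.05, 3 were higher and 1 lower, against 2113 of all 16139 genes in either direction. With voom Vgf was called higher and Per1, a clock gene with CREs in its promoter, lower, and the limma log2 fold change of Per1 was -0.45 (limma adjusted p = 0.161). Vgf was at 59.1 and 60.6 FPKM in UCN1 libraries, against 41.8 and 48.3 FPKM in PBS libraries, with a log2 fold change of 0.41 (limma adjusted p = 0.161). Nptx2, a secreted pentraxin, had 0.13 (limma adjusted p = 0.622).

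**Figure D4:**
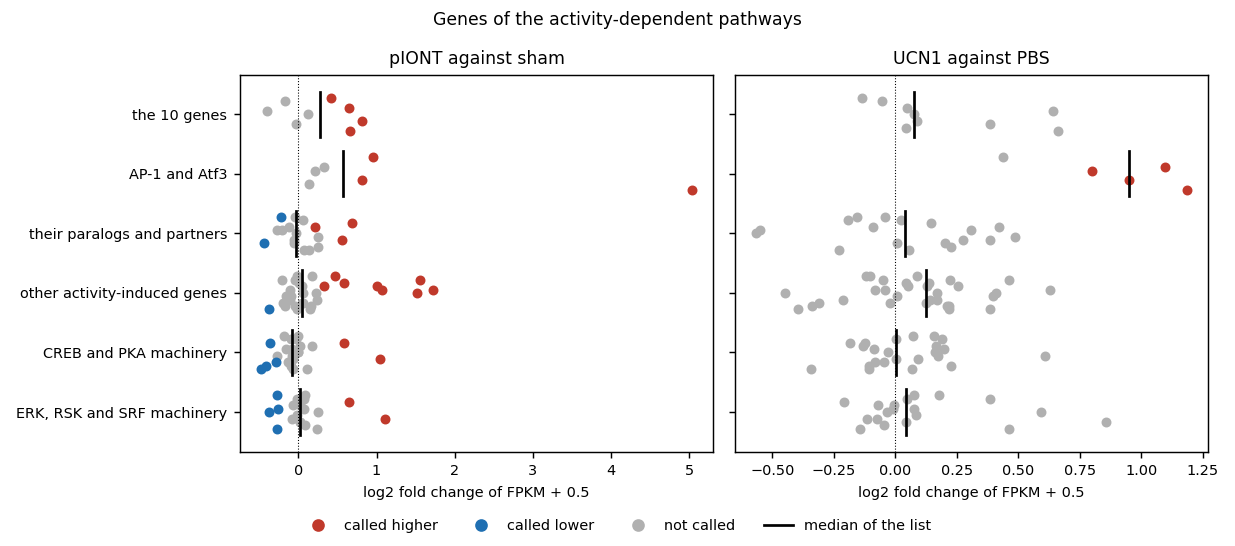
Log2 fold changes of FPKM + 0.5 (x axis) of the tested genes of 6 lists (rows, 1 point per gene) for pIONT against sham (left) and UCN1 against PBS (right), with red for genes called higher, blue for genes called lower, grey for the others and a black bar for the median. After pIONT 8 of 31 other activity-induced genes are red, and after UCN1 the 4 red points are all in the AP-1 and Atf3 list.

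Among CREB, its coactivators and the genes of protein kinase A and cyclic AMP breakdown, 2 of 23 were called higher and 4 lower after pIONT, against 10.5% and 12.3% of all genes, with a median of -0.08. Pkib, an inhibitor of protein kinase A, rose to 2.59 ± 0.288 FPKM in pIONT, against 0.996 ± 0.120 FPKM in sham (SD, n = 3 each), a log2 fold change of 1.04 (limma adjusted p = 0.000997). The phosphodiesterases that break down cyclic AMP went both ways, with Pde4b higher by 0.58 and Pde4d lower, at -0.47 (limma adjusted p = 0.00127 and 0.0065). The regulatory subunit gene Prkar2b fell by 0.37 (limma adjusted p = 0.0115), a call lost without sham 1 and pIONT 2. After UCN1, 0 of 23 were called, and 0 with voom. At an unadjusted p of 0.05, 1 was higher and 0 lower, against 2113 of all 16139 genes in either direction. The regulatory subunits Prkar1b and Prkar1a, the highest of the list, had log2 fold changes of 0.16 and 0.00 (limma adjusted p = 0.437 and 0.996).

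In the pathway of ERK and the serum response factor, 2 of 19 genes were called higher and 4 lower after pIONT, against 10.5% and 12.3% of all genes, with a median of 0.02. Elk3, a partner of the serum response factor, rose by 1.10 and Rps6ka1, the kinase RSK1, by 0.65 in log2 fold change (limma adjusted p = 0.00175 and 0.00319). The ERK pathway inhibitors Spry4 and Spred2 fell by 0.37 and 0.28 (limma adjusted p = 0.0118 and 0.0127), the call of Spry4 being lost without sham 1 and pIONT 2. Exons on the other strand cover 6.95% of the bases of Elk3 and 5.8% of those of Rps6ka1. After UCN1, 0 of 19 were called. At an unadjusted p of 0.05, 4 were higher and 0 lower, against 2113 of all 16139 genes in either direction. With voom 2 were higher, Spry1 and Spry4, whose limma log2 fold changes were 0.86 and 0.59 (limma adjusted p = 0.249 and 0.173). The kinases Mapk3 and Rps6ka3 (RSK2), the highest of the 19, had log2 fold changes of 0.05 and -0.14 (limma adjusted p = 0.843 and 0.584).

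Of 8 genes of the AP-1 family and Atf3, 6 were tested after pIONT. Called higher were 3, against 10.5% of all genes (Atf3 at 5.03, Jun at 0.96 and Fosl2 at 0.82 in log2 fold change, limma adjusted p = 1.4e-05, 0.000674 and 0.0121). After UCN1, 4 of 5 tested genes were called higher, against 0.304% of all genes (Atf3 at 1.18, Fos at 1.10, Fosl2 at 0.95 and Junb at 0.80, limma adjusted p = 0.0179, 0.0179, 0.047 and 0.0412). Each of these calls was lost in 5 to 7 of 14 alternatives. Egr1, at 0.64, lay below these 4 genes and above Jun, which was tested and not called (0.44, limma adjusted p = 0.111). Jund was at 0 FPKM in every injection library but averaged 41.2 FPKM in pIONT and 37.4 FPKM in sham. Exons of the gene Gm11175 on the other strand cover 52.6% of the exon bases of Jund, and the cause of the 0 was not tested. Whether the AP-1 genes differ from Egr1 and the other 8 genes tested was not tested.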

How the data were processed

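RNA of 10 mouse trigeminal ganglion libraries was measured (3 pIONT, 3 sham, 2 UCN1, 2 PBS). Per the labels' protocols, TRIzol served for extraction and a NEBNext Ultra II kit for the libraries. The authors deposited 1 table of FPKM values per experiment. STAR, HTSeq, DESeq2 and GRCm39 are listed in the submitters' processing notes, without version or role. Starts and ends in the injection table equalled those of GENCODE vM21 for 99.4% of matched identifiers, which places it on GRCm38. Symbols came from that release.

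Reads were recovered from the steps of low FPKM values and a gene length. Of values up to 20 reads, 92.0% to 92.7% (surgery, union of exons) and 98.8% to 99.1% (injection, mean transcript length) were whole within 0.1 reads. Within each table, genes with a mean of at least 0.5 FPKM were tested with limma 3.58.1 (R 4.3.3). The fit used log2(FPKM + 0.5), a scale that understates the change of low genes, and let the variance follow the mean. Benjamini-Hochberg adjustment ran over all genes tested. Intervals are 95% intervals from the same fit. The steps were also run on simulated counts with the same dispersion of 0.02 for every gene. The changes put in were larger than those of the genes followed here, so that run does not cover them.

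The 10 genes and all gene lists were chosen with earlier results of these data known. The text describes all 10 genes, up to 4 called genes of each list by smallest p or else the 2 with the highest level, and the 2 nearest profiles of each called gene. Per1, Egr3, Spry1 and, after UCN1, Spry4 were named after their values were seen. A gene of the ERK list is not reported here. Alternatives covered the pseudocount, filter, scaling, variance model, voom, replicate numbers and each library left out.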

Additional observations from a re-analysis of the deposited data

How the results depend on the processing

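The 4 genes called after pIONT were called under all 17 alternatives, and 0 were called lower under each. After UCN1 the number called higher was 0 in each alternative except voom, where it was 1 (Egr1), and 0 were called lower. Counts over all genes depended on the processing, and the cause was not tested. After pIONT, 1537 genes were higher and 1807 lower. Leaving out 1 library gave 922 to 1389 higher and 767 to 1580 lower, lowest without sham 3 in both directions. Without sham 1 and pIONT 2, chosen after seeing the data, it was 898 and 758. After UCN1, 49 were higher and 48 lower, 0 and 2 with no filter, 1 and 4 without a variance trend, 164 and 188 with voom, and 0 to 19 and 4 to 19 with 1 library left out. At 2 FPKM 84 were higher and under TPM scaling 29. Same-numbered libraries showed no clear pairing (correlations of same-numbered deviations of -0.20 to 0.07 and 0.04). With so few libraries per group these correlations cannot exclude it. With the replicate block the count of genes called lower, pIONT against sham, was 1032, and 124 were higher and 136 lower after UCN1. Some log2 fold changes near 0 changed sign. With 1 library left out, Ier2 after pIONT ranged from -0.12 to 0.041, and after UCN1 Nr4a1 from -0.17 to 0.055, Nr4a2 from -0.0071 to 0.16, Nr4a3 from -0.15 to 0.24, Btg2 from -0.19 to 0.29, Nab1 from -0.017 to 0.13, Prkar1a from -0.076 to 0.079 and Mapk3 from -0.010 to 0.11. TPM scaling gave -0.028 for Prkar1a, UCN1 against PBS. Nr4a3 and Npas4 rest on too few reads for a firm value.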
